A study of Mus musculus with 2 samples.

Results

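The HoxD cluster, 9 homeobox genes that lie side by side on mouse chromosome 2, was followed in bulk RNA-seq of small intestine crypts. Members were the genes with the symbols Hoxd13, Hoxd12, Hoxd11, Hoxd10, Hoxd9, Hoxd8, Hoxd3, Hoxd4 and Hoxd1, in order of RefSeq gene start. In the numbered order of the cluster Hoxd4 lies between Hoxd8 and Hoxd3, but the RefSeq start of Hoxd3 comes before that of Hoxd4. All 9 had a row among the 17216 genes of the deposited table. Hoxd11 had 2 rows, of which the one with the higher mean was used. The wild-type library had the genotype AhCre and the Eed knockout library AhCreEedfl/fl, both on the C57BL/6 strain, and the labels give no number of animals. AhCre is a Cre recombinase gene under an aryl hydrocarbon receptor responsive promoter, and in both groups 3 β-naphthoflavone injections were given to switch that promoter on. Crypts were taken 15 days after these. The control thus carried the recombinase and received the agent as well, without the floxed Eed allele. Ages were not used here, and how many crypt cells had lost Eed is not in the labels. Eed belongs to the core of PRC2, the Polycomb complex that methylates histone H3 at lysine 27. Eed itself (NM_021876) had 588 reads of 6970733 in the wild-type library and 183 of 5918162 in the knockout, 3.08-fold lower (2.61 to 3.66), and which of its exons were floxed is not in the labels. With 1 library per genotype no difference below has a replicate check or a test of genotype. All intervals are exact 95% intervals for counting error only.

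Hox proteins are transcription factors that give cells along the body axis their position. The genes of a cluster are switched on in the order in which they lie, from the 3′ end (Hoxd1) in anterior tissue to the 5′ end (Hoxd13) in the most posterior tissue and in the tips of the limbs. Hox clusters are textbook targets of Polycomb repression, which keeps a cluster silent where it is not in use. In the developing gut, HoxD genes are known chiefly from the mesoderm of the caecum and hindgut.

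Sequence before the start is shown for 4 members, because these hold both the highest and the lowest knockout levels of the cluster. Each run is the 250 bases before the RefSeq gene start in build GRCm38.p6, on the plus strand, with CG dinucleotides in capitals, and all 9 members matched a RefSeq window. In vertebrates PRC2 is known to occupy regions rich in CG dinucleotides.
Hoxd4, chr2:74721728-74721977: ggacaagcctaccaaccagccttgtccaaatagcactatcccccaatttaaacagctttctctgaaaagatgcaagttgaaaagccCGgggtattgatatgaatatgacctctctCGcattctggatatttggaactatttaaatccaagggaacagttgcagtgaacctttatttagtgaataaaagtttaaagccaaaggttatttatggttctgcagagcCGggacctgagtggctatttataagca
Hoxd13, chr2:74667975-74668224: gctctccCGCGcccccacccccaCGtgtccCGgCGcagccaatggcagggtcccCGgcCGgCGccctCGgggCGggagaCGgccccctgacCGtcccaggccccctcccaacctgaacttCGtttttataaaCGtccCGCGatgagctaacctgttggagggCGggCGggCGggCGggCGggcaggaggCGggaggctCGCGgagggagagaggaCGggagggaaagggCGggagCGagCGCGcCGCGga
Hoxd12, chr2:74674763-74675012: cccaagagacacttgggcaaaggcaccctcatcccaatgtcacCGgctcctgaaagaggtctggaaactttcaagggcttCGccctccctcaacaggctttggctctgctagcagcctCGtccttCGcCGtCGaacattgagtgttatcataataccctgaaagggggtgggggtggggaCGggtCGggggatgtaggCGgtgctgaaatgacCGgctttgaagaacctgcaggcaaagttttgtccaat
Hoxd11, chr2:74682073-74682322: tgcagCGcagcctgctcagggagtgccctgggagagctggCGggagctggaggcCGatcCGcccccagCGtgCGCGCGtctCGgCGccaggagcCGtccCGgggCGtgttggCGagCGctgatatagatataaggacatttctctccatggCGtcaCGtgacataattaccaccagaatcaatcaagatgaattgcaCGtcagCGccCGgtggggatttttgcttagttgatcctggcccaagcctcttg

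The HoxD cluster had few reads in the wild-type library and many, from 6 of its 9 genes, in the knockout library. The 9 genes together had 12 wild-type and 716 knockout reads, a ratio of 62.2 (35.4 to 121) after scaling with the authors' size factors. A gene was counted as higher by reads when its ratio was at least 2 and 1 library had more than 3 reads, with 0 reads set to a floor of 3 reads in that library. By this rule 6 of 9 members were higher and none lower, against 14.8% of all 17216 genes higher and 4.81% lower. Among the 5250 genes with no more than 7 wild-type reads, the highest wild-type count of any HoxD gene, 28.7% were higher. In bulk samples fewer cells with a transcript and less transcript per cell cannot be told apart.

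The genes at the 3′ side of the cluster differed widely. Hoxd4, which patterns the upper neck vertebrae and the hindbrain, had 7 wild-type and 305 knockout reads. It had the most reads of the cluster in both libraries. The ratio was 45.4 (21.8 to 114), and Hoxd4 held 42.6% of the HoxD reads of the knockout library (38.9 to 46.3, Clopper-Pearson). Hoxd3, which acts in the patterning of the first vertebrae, had 1 and 59 reads, a ratio of 61.5 (10.6 to 2469). Hoxd1, known in mouse from pain-sensing neurons, had 0 and 4 reads. With wild type set to the floor the ratio of Hoxd1 was 1.39. The exact lower limit was 0.688, so no difference was detectable at this depth.

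The central genes Hoxd8, Hoxd9 and Hoxd10 were all higher by reads. Hoxd8, a gene of the trunk, had 1 and 76 reads, a ratio of 79.2 (13.8 to 3169). Hoxd9, which acts in the lower spine and the limbs, had 2 and 69 reads, for which the ratio was 36.0 (9.58 to 303). Their counts in the knockout library lay close together. Hoxd10, which acts in motor neurons of the hindlimb region, had 1 and 30 reads, a ratio of 31.3 (5.20 to 1276). Hoxd10 had the fewest knockout reads of the 6 members counted as higher.

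At the 5′ end, Hoxd13 stood apart from its direct neighbours. Hoxd13, the gene of digits, genital tubercle and hindgut, had no wild-type read but 170 knockout reads. With wild type set to the floor the ratio was 59.1, and the exact lower limit was 47.5. Hoxd12, which acts with it in the digits, had 0 and 1 reads. Hoxd11, which builds the forearm together with Hoxa11, had 0 and 2 reads, and its second row had 0 and 1. Neither Hoxd12 nor Hoxd11 exceeded the floor of 3 reads in either library, so no ratio is given. This pair of genes lay between Hoxd13 and Hoxd10, both of which had knockout reads well above the floor.

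**Figure D1:**
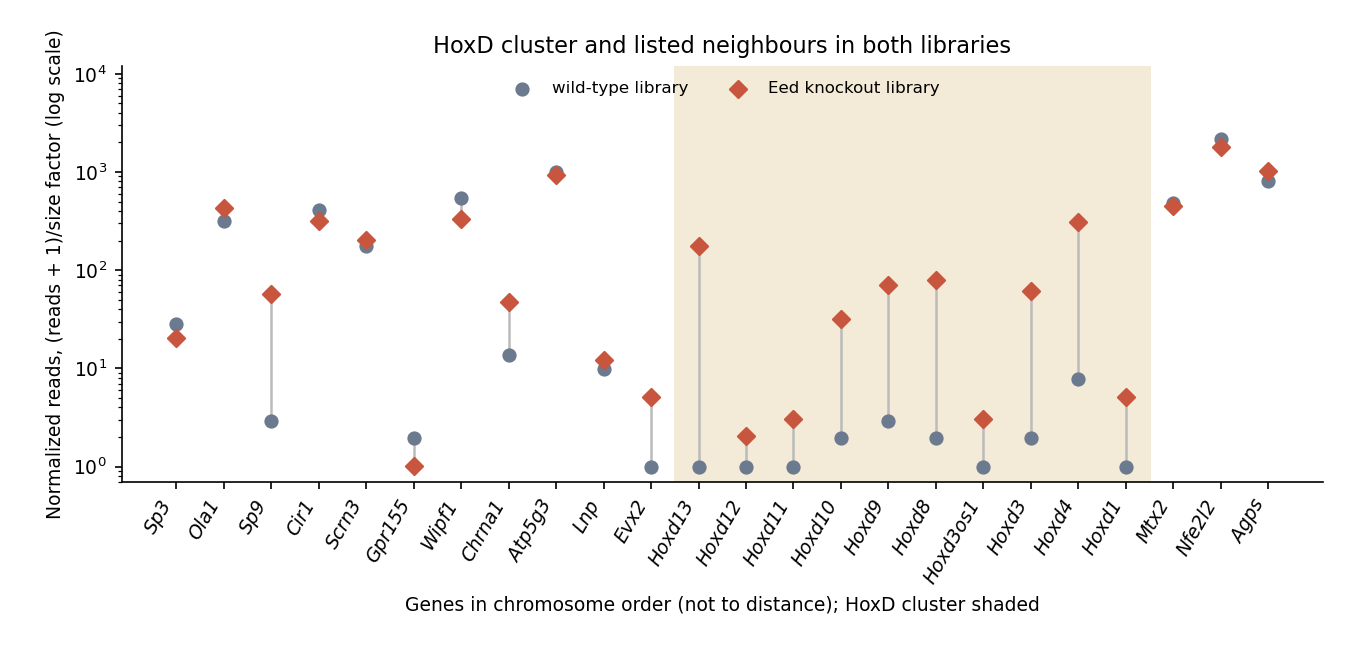
Normalized reads on a log scale (vertical axis) of the HoxD genes, shaded, and of the listed neighbours that had a row. Genes are ordered along the chromosome by RefSeq start position (horizontal axis, not to distance), so Hoxd3 stands before Hoxd4. Circles are the wild-type library and diamonds the Eed knockout library. Inside the cluster Hoxd13, Hoxd10, Hoxd9, Hoxd8, Hoxd3 and Hoxd4 lie far above their wild-type values, while Hoxd12, Hoxd11 and Hoxd1 stay at 1 to 4 knockout reads, and Mtx2 and Atp5g3 outside it are nearly equal in both.

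Levels were compared between members as reads per kilobase (kb) of transcript, to take out differences in transcript length. In the knockout library Hoxd4 was highest at 119 reads per kb (106 to 133). Hoxd13 followed with 68.5 (58.6 to 79.6), and these intervals do not overlap. Hoxd9 had 32.3 reads per kb (25.1 to 40.9) and Hoxd8 28.9 (22.7 to 36.1), which cannot be ordered within counting error. Hoxd3 had 19.9 (15.1 to 25.6) and Hoxd10 16.5 (11.1 to 23.6), which overlap as well, and both intervals also overlap that of Hoxd8. At the bottom were Hoxd1 with 2.15 (0.585 to 5.50), Hoxd11 with 1.80 (0.218 to 6.50) and Hoxd12 with 0.395 (0.00999 to 2.20). The upper limit of each of these 3 lay below the lower limit of Hoxd10. In the wild-type library the levels per kb ran from 0 to 2.73, the latter in Hoxd4 (1.10 to 5.63). That interval overlaps those of other members, among them Hoxd9 (0.113 to 3.38). Dividing by coding length in place of transcript length exchanged Hoxd8 and Hoxd9 and kept the other 7 ranks.

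**Figure D2:**
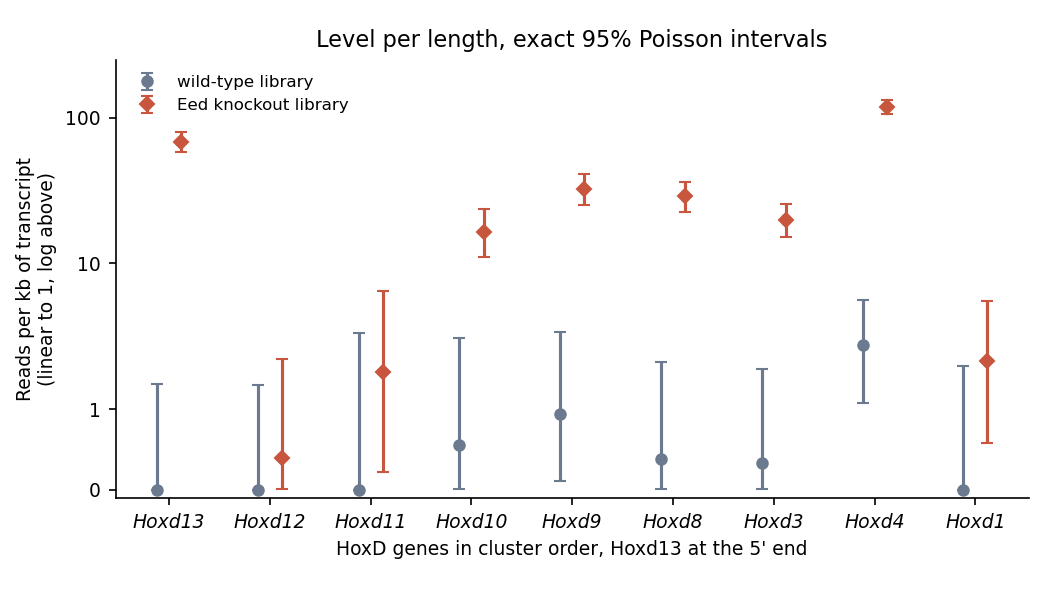
Reads per kb of transcript (vertical axis, linear up to 1 and logarithmic above) of the 9 HoxD genes, ordered by RefSeq gene start. Circles are the wild-type library, diamonds the Eed knockout library, and bars exact 95% Poisson intervals. Hoxd4 at 119 and Hoxd13 at 68.5 are the highest knockout levels, and Hoxd12, Hoxd11 and Hoxd1 lie below the other 6.

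Set against other transcripts of the same library, the raised HoxD genes reached the middle of the range of expression. Over 16846 genes with a known transcript length, the median level in the knockout library was 33.2 reads per kb. Hoxd4 lay above 69.2% of these genes and Hoxd13 above 59.3%. Hoxd9 lay above 49.7% and Hoxd8 above 48.5%, close to the median. Hoxd12 lay above 6.87%. In the wild-type library Hoxd4, the member with the most reads, lay above 28.3% of genes.

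By the stricter rule of size, which asks for a 2-fold difference on the log2(value + 1) scale and a mean of at least 20 normalized reads, 5 of the 9 members passed the filter on the mean and all 5 were called higher. Of 10879 genes tested by that rule, 11.2% were called higher and 3.58% lower. Members with almost no wild-type reads pass the filter only through the knockout library, so this count had to come out as it did. Hoxd3, with a mean of 31.6, lay just inside the filter and Hoxd10, with 16.8, just outside. The median log2 ratio of all 9 members on this scale, unfiltered, was 4.20, against -0.004 for all 17216 genes and -0.11 for genes tested. On read ratios with libraries at 0 set to the floor it was 5.17, against 0 over all 17216 genes. Scaling to library totals changed the scale factor by 0.18 log2 units, and the median log2 ratio of the 9 members became 4.35. Among called genes the share that was higher then went from 75.7% (1217 higher, 390 lower) to 85.9% (1444 higher, 237 lower). The authors' deposited table gave adjusted p-values below 0.05 to 2 members, Hoxd4 (2.66e-05) and Hoxd13 (0.000155). Of 18766 rows in the authors' deposited table, 0.89% were called higher in this way and 0.0853% lower. The authors' deposited table gave Hoxd8 an adjusted p of 0.155, Hoxd9 0.343 and Hoxd3 0.425, and the remaining 4 members a value of 1. These p-values come from 1 library per genotype and do not measure variation between animals.

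Genes beside the cluster were read for whether the difference ran on along the chromosome. Of 23 listed symbols, which include older and newer names of the same genes, 15 genes had a row and 11 passed the mean of 20. Of these 11, 2 were called higher and none lower, against 11.2% of all genes called higher. Both passed the mean only through the knockout library, and with a mean of at least 50 the count was 0. Mtx2, a mitochondrial import gene that adjoins the cluster on the Hoxd1 side, had 492 and 438 reads, a ratio of 0.928 (0.814 to 1.06). On the Hoxd13 side, Evx2, a homeobox gene that shares limb enhancers with Hoxd13, had 0 and 4 reads. The exact lower limit of its ratio was 0.688. Lnp, which encodes an endoplasmic reticulum protein and comes next, had 9 and 11 reads, a ratio of 1.27 (0.480 to 3.48). For neither Evx2 nor Lnp was a direction resolved within counting error. Atp5g3, a subunit gene of the mitochondrial ATP synthase, had 1014 and 903 reads. Both genes called higher lay farther out on that side. Chrna1, a subunit of the muscle acetylcholine receptor, had 13 and 46 reads, a ratio of 3.69 (1.96 to 7.44). Sp9, a zinc finger gene of the limb bud ridge, had 2 and 55 reads, a ratio of 28.7 (7.57 to 243). Wipf1, an actin regulator that lies between this pair, had 557 and 321 reads, 1.66-fold lower (1.45 to 1.92). Hoxd3os1, a non-coding transcript inside the cluster that the file lists under an older name, had 0 and 2 reads. In the GENCODE annotation no chosen HoxD transcript shares an exonic base with a chosen transcript of another member or with Hoxd3os1. The chosen Hoxd11 transcript shares 266 exonic bases with that of the second Hoxd11 row. Reads in these bases may have been split, counted in both rows or left out. Haglr, another non-coding gene of the cluster, was among the listed symbols but had no matched row.

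The other Hox clusters served as the nearest comparison. HoxA had 60 wild-type and 677 knockout reads, a ratio of 11.8 (9.02 to 15.6). HoxB had 36 and 1770, a ratio of 51.2 (36.9 to 73.4), and HoxC 2 and 418, a ratio of 218 (59.9 to 1805). HoxD, at 62.2 (35.4 to 121), overlaps HoxB and HoxC within counting error and lies above HoxA. By reads, 10 of 11 HoxA genes, 9 of 10 HoxB genes and 9 of 9 HoxC genes were higher, with none lower, against 6 of 9 in HoxD. Over all 17216 genes 14.8% were higher by reads and 4.81% lower. Among genes with no more than 7 wild-type reads 28.7% were higher. Of the 39 Hox genes 4 had no more than 4 knockout reads, and 3 of them belonged to HoxD, the other being Hoxb1 with 1 and 1. The median log2 ratio over all members of a cluster was 2.92 in HoxA, 4.06 in HoxB and 4.09 in HoxC, on the log2(value + 1) scale. With libraries at 0 set to the floor the medians were 4.23 in HoxA, 4.46 in HoxB, 3.64 in HoxC and 5.17 in HoxD. As 7 of the 9 HoxC genes had 0 wild-type reads, its value is a median mostly over ratios set by the floor. The clusters cannot be ordered by these medians.

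Gene by gene, HoxD members were above their paralogues in some groups and below them in others. A paralogue group holds the genes at the same place in the 4 clusters. In group 4, Hoxd4 had 119 reads per kb in the knockout, against 31.6 (25.1 to 39.2) for Hoxb4, 9.41 (5.27 to 15.5) for Hoxa4 and 4.54 (2.08 to 8.62) for Hoxc4. Over all 39 Hox genes Hoxd4 ranked at place 4 per kb, after Hoxb13, Hoxb9 and Hoxb6, and its interval overlaps those of Hoxb9 (121 to 149) and Hoxb6 (114 to 154). In group 8 the 3 genes were of similar level, with 28.9 for Hoxd8, 32.6 (26.1 to 40.3) for Hoxb8 and 22.5 (16.2 to 30.4) for Hoxc8. In group 9, Hoxd9 at 32.3 was beside Hoxc9 at 29.1 (22.6 to 36.8), below Hoxb9 at 134 and above Hoxa9 at 5.58 (3.31 to 8.82). In group 10, Hoxd10 at 16.5 was below Hoxa10 at 40.4 (30.7 to 52.2) and Hoxc10 at 35.6 (27.7 to 45.2).

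The gap at Hoxd11 and Hoxd12 was not seen at the same places of HoxC, nor at group 11 of HoxA, which has no gene of group 12. Hoxa11 had 0 and 171 reads and Hoxc11 0 and 36. In the knockout library that is 74.8 reads per kb (64.0 to 86.9) for Hoxa11 and 17.8 (12.5 to 24.7) for Hoxc11, against an upper limit of 6.50 for Hoxd11. Hoxc12, the only other gene of its group, had 0 and 29 reads, or 28.1 per kb (18.8 to 40.4) in the knockout, against an upper limit of 2.20 for Hoxd12. In group 13 all 4 genes had 0 wild-type reads. Hoxb13 had 803 knockout reads, Hoxd13 170, Hoxa13 70 and Hoxc13 31. Per kb Hoxd13 at 68.5 lay below Hoxb13 at 364 (339 to 390), overlapped Hoxa13 at 53.5 (41.7 to 67.6) and lay above Hoxc13 at 12.6 (8.56 to 17.9).

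**Figure D3:**
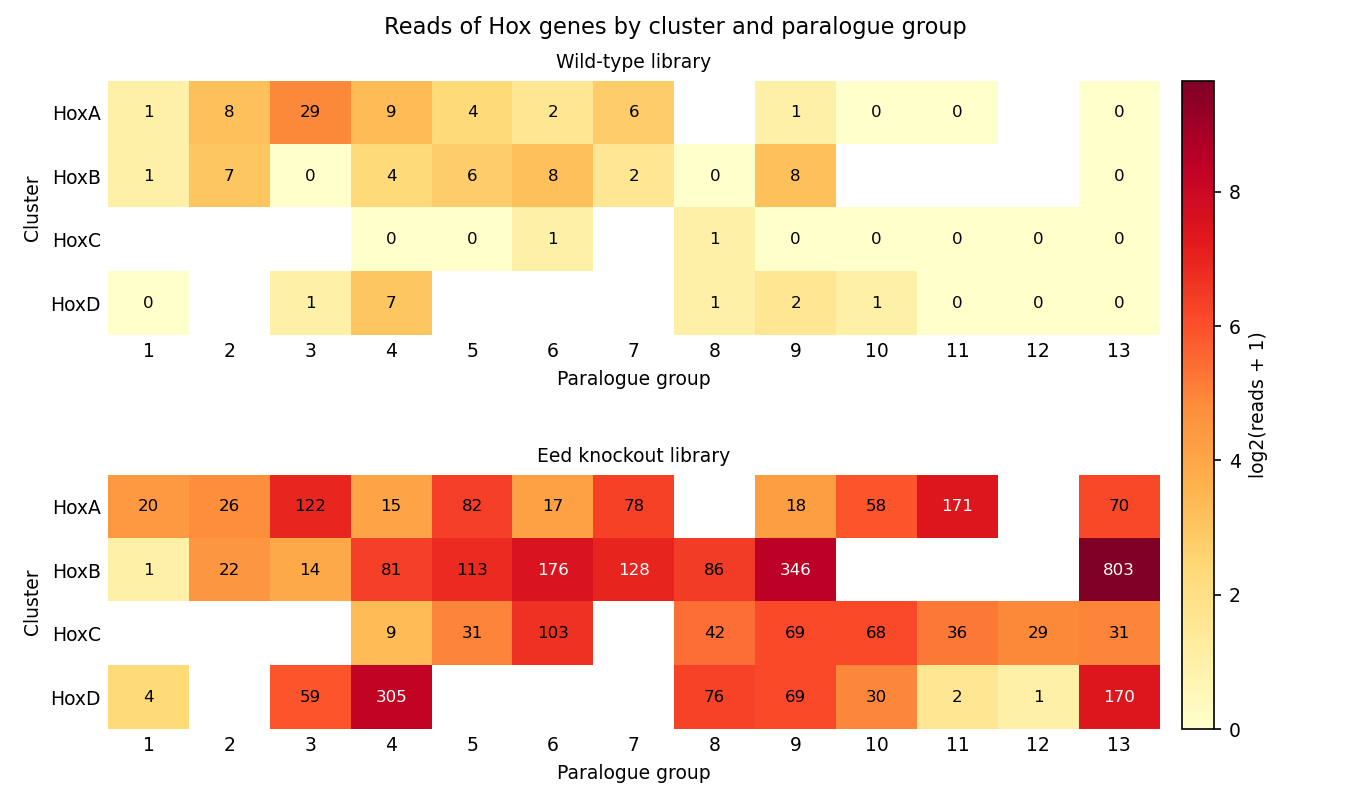
Reads counted for each Hox gene by cluster (rows) and paralogue group (columns) in the wild-type library (top) and the Eed knockout library (bottom), coloured by log2(reads + 1). Blank cells are places with no gene in that cluster. In the bottom row of the knockout panel the run of HoxD reads is broken at groups 11 and 12, with 2 and 1 reads, between 30 at group 10 and 170 at group 13.

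The sequences before the start, printed above for 4 members, differed in CG content, and not in the order of the levels. Over 32851 RefSeq promoter windows of this length the median number of CG dinucleotides was 6. Hoxd4 had 3, more than 29.0% of windows, and a GC content of 40.4%. Hoxd13 had 31, more than 94.8% of windows, and a GC content of 74.4%. The highest and the next highest level of the cluster thus went with the fewest and the most CG dinucleotides among its 9 windows. Hoxd11 had 20 and Hoxd12 10, both above the median, and Hoxd10 also had 20. The remaining windows held 24 in Hoxd1, 13 in Hoxd9, 12 in Hoxd3 and 6 in Hoxd8. The GENCODE transcript start of Hoxd8 lies 290 bases from the RefSeq start, farther than the window is long.

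Short motifs were searched on both strands of the same 9 windows. TTTATG, the core recognised by caudal (Cdx) factors, was found in Hoxd4 and Hoxd3, 2 of 9, and in 10.8% of all windows. In Hoxd4 it began 45 bases before the start. TATAAA, the letters of the TATA box, was found in Hoxd13 and Hoxd4, and in 12.4% of all windows. In Hoxd13 it lay on both strands with overlapping matches, the sense one 124 bases before the start, and in Hoxd4 on the antisense strand alone, 10 bases before the start. CCAAT, bound by NF-Y, was found in 7 of 9 windows and in 33.9% of all windows, among them Hoxd12, where it ends at the base before the start. CACGTG, an E-box, was found in Hoxd13, Hoxd11, Hoxd10 and Hoxd1, 4 of 9, and in 6.02% of all windows. No match overlapped a match of another motif. A match describes these letters only.

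**Figure D4:**
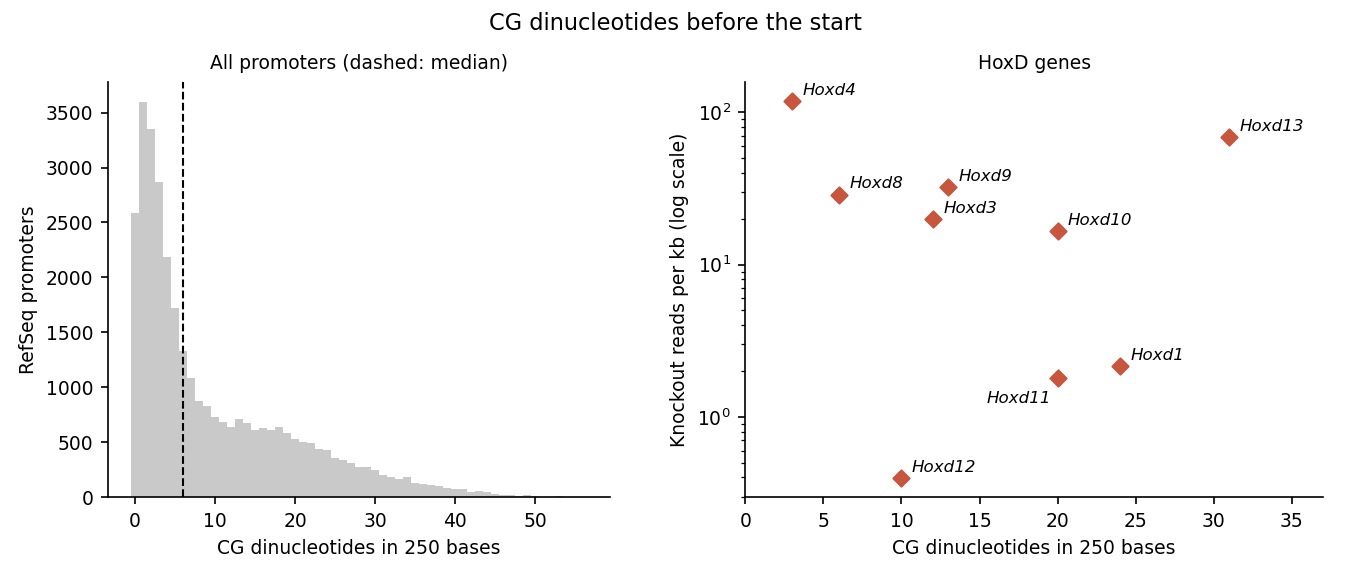
Left, number of CG dinucleotides in the 250 bases before the start (horizontal axis) over 32851 RefSeq promoter windows (vertical axis, count), with the median of 6 dashed. Right, the 9 HoxD genes by that number and by knockout reads per kb (log scale). Hoxd4 with 3 and Hoxd13 with 31 are at opposite ends of the horizontal axis and are the highest of the cluster.

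Genes that act with Hox proteins or on Hox clusters differed less than the cluster itself. Among TALE homeobox genes, the DNA-binding partners of Hox proteins, 5 of 6 with a row passed the mean of 20 and none was called. Pbx4 had 34 and 56 reads, and the ratio was 1.72 (1.10 to 2.71). Pbx3 had 83 and 105. Pknox1 had 30 and 17, and Pbx2 586 and 591. Meis1, a partner of posterior Hox proteins, had 0 and 6 reads, was the 1 gene of the list higher by reads, and was picked with these values known. Its ratio with wild type set to the floor was 2.08, with an exact lower limit of 1.23. Of 22 activators and repressors of Hox clusters that passed the mean, 1 was called higher and 1 lower, against 11.2% and 3.58% of all genes tested. The median log2 ratio of the 22 was -0.20. The lower one was Eed itself. The higher one was Bmi1, a subunit of Polycomb complex PRC1, with 352 and 841 reads, a ratio of 2.49 (2.20 to 2.83). Cbx7, a reader of the PRC2 mark, had 275 and 426 reads. Cdx2, the intestinal caudal factor, had 1964 and 1015, a ratio of 0.539 (0.499 to 0.581). Kmt2a, the methyltransferase that keeps Hox genes active and likewise picked with its values known, had 2228 and 1711.

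In the retinoic acid pathway, which switches on the 3′ genes of Hox clusters in embryos, 2 of 7 genes that passed the mean were called higher and none lower. The median log2 ratio was 0.14. Aldh1a3, an enzyme that makes retinoic acid, had 6 and 47 reads, a ratio of 8.16 (3.48 to 23.4). At the other end Rxra, a nuclear receptor, had 2640 and 1398 reads, 1.81-fold lower (1.70 to 1.93), and Aldh1a1 1770 and 1198. These counts stand beside 11.2% of all genes tested. By reads 5 of 16 were higher and none lower, against 14.8% of all genes and 28.7% of those with no more than 7 wild-type reads. Rarb, a retinoic acid receptor, had 6 and 22 reads and Cyp26a1, which degrades retinoic acid, 3 and 3, and both were picked with these values known.

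Genes known downstream of the 5′ HoxD proteins in the limb bud included several with many more reads in the knockout library. Of 6 that passed the mean, 5 were called higher and 1 lower, against 11.2% and 3.58% of all genes. Of the 5, Sall1, Epha3, Shh and Epha7 passed the mean only through the knockout library, so their calls had to come out higher. Sall1, which encodes a zinc finger protein, had no wild-type read and 124 in the knockout. With wild type set to the floor the ratio was 43.1, and the exact lower limit was 34.5. Epha3, an ephrin receptor gene, had 1 and 37 reads, a ratio of 38.6 (6.50 to 1564). Shh, the hedgehog ligand gene of the limb's posterior margin, picked with its values known, had 4 and 90 reads. The ratio was 23.4 (8.85 to 87.9). Bmp7 had 196 and 545 reads, a ratio of 2.90 (2.46 to 3.43), while Bmp2, another ligand of that family, had 1187 and 475, 2.40-fold lower (2.15 to 2.67). Whether these levels follow those of HoxD genes was not tested.

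Nearest to Hoxd4 in its pair of values, among genes outside the Hox clusters and by distance on the log2(value + 1) scale over the 2 libraries, were Rgs16, Plagl1, Cela2a, Gpc3 and Atg9b. Rgs16 had 7 and 272 reads, Plagl1 6 and 282, and Cela2a, an elastase of the exocrine pancreas, 7 and 242. Their distances ran from 0.164 to 0.429 log2 units. With 2 libraries such a likeness is a description of these values only.

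Markers of gut region and of other cell types were read beside HoxD. Markers of the crypt epithelium were abundant in both libraries. Of 10, none was called, and they summed to 26112 and 23055 reads. Lgr5, the crypt stem cell receptor, had 499 and 649 reads and Olfm4, another stem cell gene, 2606 and 1622, a ratio of 0.649 (0.609 to 0.690). Cdx2, also on this list, is given above with a ratio of 0.539. Region marker counts stand beside 11.2% of all genes tested called higher and 3.58% lower. Of 8 markers of the proximal small intestine 2 were called higher, Cybrd1 (49 and 530 reads) and Slc40a1 (668 and 1358), and none lower, while Gata4 had 2158 and 1169 and Lct 10052 and 5310. Of 5 distal markers 2 were called higher, Fgf15 (124 and 373) and Slc10a2 (297 and 749), and none lower. The uncalled distal markers were split. Fabp6 (588 and 763) lay above a ratio of 1, whereas Slc51a (1858 and 1457) and Slc51b (548 and 467) lay below it. For Slc51b the interval (0.783 to 1.01) left the direction unresolved. Of 5 colon markers that passed the mean none was called, and their median log2 ratio was -0.22. Car4 had 660 and 376 reads. Saa1 with 156 and 214, a ratio of 1.43 (1.16 to 1.77), and Muc4 with 2391 and 2533 were the 2 of these 5 above a ratio of 1. Slc37a2, under the mean of 20, had 11 and 1 and was the 1 colon marker lower by reads.

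Fibroblast and smooth muscle markers, from cells in which HoxD genes are known, were higher together with HoxD in part. Of 13 listed, 11 had a row, 8 of these were higher by reads and none lower, against 14.8% of all genes and 28.7% of those with no more than 7 wild-type reads. They summed to 132 and 665 reads, a ratio of 5.25 (4.35 to 6.38). The collagen genes Col3a1, Col1a1, Col1a2 and Col6a1 had 6 and 198, 1 and 155, 0 and 124, and 3 and 50 reads. Of the others with a row, Lum had 0 and 16 reads, Des 2 and 8, Acta2 4 and 8 and Cnn1 2 and 5, all higher by reads. The intervals of Des (0.832 to 40.3), Acta2 (0.558 to 9.46) and Cnn1 (0.427 to 27.4) include a ratio of 1, so counting error alone leaves their direction unresolved. Pdgfra had 1 and 0, Dcn 0 and 1 and Tagln 113 and 100, none of which was counted as higher or lower. Exocrine pancreas genes summed to 154 and 1866 reads, a ratio of 12.6 (10.7 to 15.0). All 9 with a row were higher by reads. Prss2, a trypsinogen gene, had 2 and 177. Immune markers summed to 242 and 308 reads, with 3 of 8 higher by reads, among them Csf1r with 28 and 94. Markers of enteric neurons and glia summed to 61 and 131, with 2 of 6 higher, and endothelial markers to 26 and 58, with 2 of 4 higher. The part of these cells and regions in the HoxD result was not tested.

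**Figure D5:**
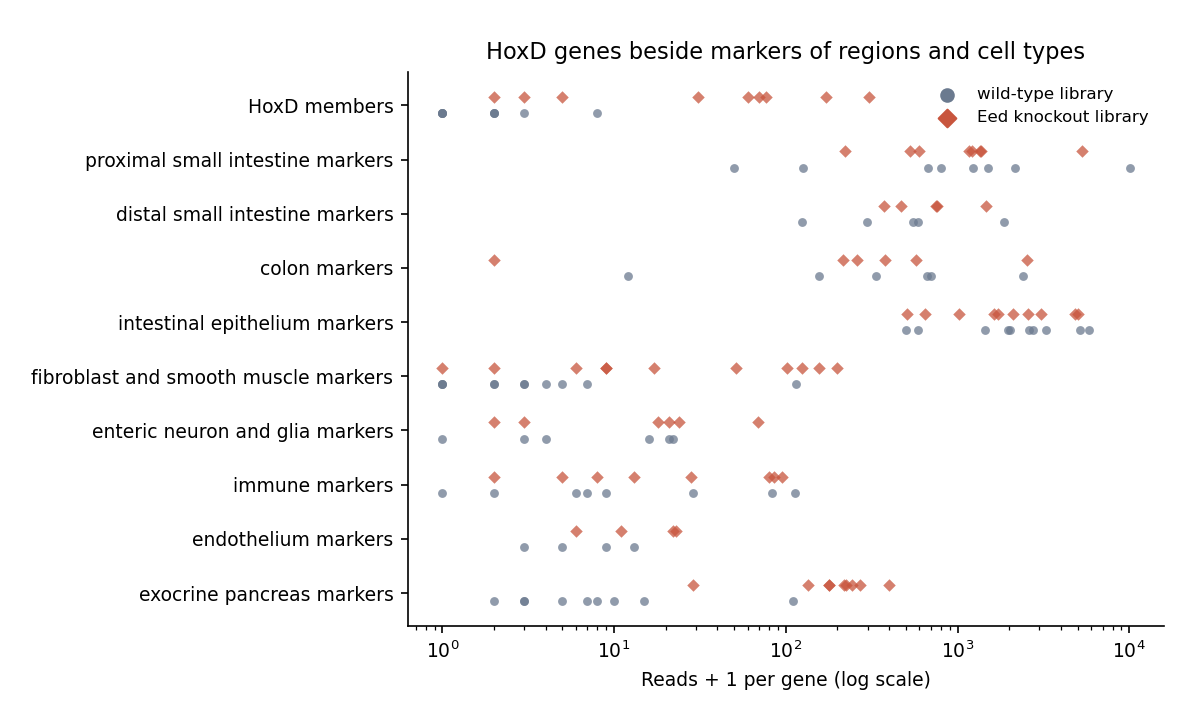
Reads plus 1 of each gene (horizontal axis, log scale) in the HoxD cluster and in lists of region and cell type markers (rows). Circles are the wild-type library and diamonds the Eed knockout library. HoxD genes reach from 1 to 305 reads in the knockout, epithelial markers lie in a similar range in both libraries, and exocrine pancreas and some fibroblast markers are shifted to the right in the knockout.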

How the data were processed

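Crypt RNA was turned into mRNA libraries with a TruSeq RNA kit, per the labels' protocols. The submitters' processing notes name TopHat, DESeq and the build mm9. The counting tool and its strand mode were not given in the sources used here. One table was deposited by the authors: 18766 rows with a normalized signal per library, a ratio (fold change), its log2, and p-values, per the file headers. Within a tolerance of 1e-06, 100% of values in either library were whole multiples of its lowest value, so whole reads were recovered. No row was at the lowest value in both libraries, from which 1 added read per value was inferred and taken off. Totals were 6970733 wild-type and 5918162 knockout reads, so genes with few reads have wide intervals.

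Where a gene had several rows, that of the highest mean was taken. Ratios use recovered reads and the authors' size factors, with Clopper-Pearson intervals conditional on the sum, or a floor of 3 reads in a library at 0. Without molecular identifiers PCR copies are counted as if independent. Names came from a RefSeq table of GRCm38.p6 (98.6% of rows matched), and transcript and coding lengths from GENCODE vM21. That build is not the authors', so it served for names, order, lengths and sequence only. Promoter windows end at the base before the RefSeq gene start, which lies 290 bases from the GENCODE transcript start for Hoxd8, 85 for Hoxd13, 66 for Hoxd3, 36 for Hoxd9, 33 for Hoxd10, and at the same base for the other 4. Named genes were the members, the neighbours, the Hox paralogues and up to 4 extreme genes per list. Some genes of these lists are not reported here by name. The members, lists and rules were chosen with earlier results of these data known. An exact binomial test on recovered reads, with Benjamini-Hochberg adjustment, was added as an alternative. It compares these 2 libraries and not the genotypes. Functions were tested on simulated data. Software was SciPy 1.17.1, pandas 2.3.3, NumPy 2.4.6 and, for figures, Matplotlib 3.10.9, under Python 3.11.15.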

Additional observations from a re-analysis of the deposited data

How the results depend on the processing

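The count of 6 HoxD genes higher by reads was the same under the 3 other scalings, at thresholds of 1.5-fold and 4-fold and with a symbol's rows summed, as was that of 28 genes of the other clusters to within 1.5 times. The median log2 ratio of HoxD fell to 2.57 with a pseudocount of 10, which also moved the 6 higher members to between 1.80 and 4.18, and no alternative turned a direction. The count with a mean of at least 20 was 8 with no filter and 2 with a mean of 50, by construction of the filter. Neighbours called were 4 with no filter, 0 with a mean of 50 and 1 at 4-fold. Over all genes, lower calls were 237 with library totals and 246 with the median ratio. Higher and lower calls were 2825 and 726 with no filter, 1837 and 1430 at 1.5-fold, and 568 and 59 at 4-fold, and higher calls were 778 with a mean of 50. The exact binomial test, added after the data were seen, called 2955 genes higher and 3976 lower, with 6 HoxD genes higher and Hoxd1, Hoxd11 and Hoxd12 not called. No paired analysis was possible because each genotype has 1 library, and no library could be left out for the same reason. At this depth a difference in the 3 lowest HoxD genes was not detectable.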
